A study of Mus musculus with 15 samples.

Results

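Messenger RNAs of inflammation are removed by a small set of proteins that bind them and bring in the enzymes that shorten the poly(A) tail. The ZFP36 proteins (ZFP36, also called tristetraprolin, ZFP36L1 and ZFP36L2) bind AU-rich elements in 3′ untranslated regions and recruit the CCR4-NOT deadenylase. BTG and TOB proteins bind the same deadenylase through its catalytic subunits and are best known for slowing proliferation, and Regnase-1, the product of *Zc3h12a*, is a ribonuclease that cuts stem-loops in cytokine mRNAs and has a known role in restraining skin inflammation. The genes for all of these proteins, *Zfp36*, *Zfp36l1*, *Zfp36l2*, *Zc3h12a*, *Btg1*, *Btg2*, *Tob1* and *Tob2*, were picked by their symbols, and 8 of 8 were found among the 21110 genes with a deposited value.

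RNA from ears of 15 C57BL/6 mice was sequenced, 1 library for each mouse. At 2 weeks of age there were 4 mice of each genotype, wild type and *Socs3* cKO. At 10 weeks there were 3 wild type mice and 4 *Socs3* cKO. The cKO animals lack the cytokine signalling inhibitor *Socs3* in keratinocytes, through a keratin 5-specific knockout. Cells of the ear that are not keratinocytes are not targeted. The comparison addresses what loss of *Socs3* in keratinocytes does to gene expression at a young and an adult age. Values are FPKM, reads scaled to transcript length and to the mapped reads of the library, so levels of different genes can be set side by side, but the read depth behind each value is unknown.

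The source label names keratinocytes, while the extraction started from ear specimens. Summed markers of interfollicular keratinocytes were high in every library (7543 to 15500 FPKM), but skeletal muscle markers (333 to 2802 FPKM) and fibroblast markers (3858 to 14859 FPKM) were also present in every library. The values therefore belong to whole ear tissue, in which fewer cells of a type and less RNA per cell cannot be told apart. Codes in the sample titles also run in a separate range for each group. The labels do not say what the codes stand for, and whatever they mark cannot be told apart from group. Wild type libraries at 10 weeks listed 1414 to 3176 genes at 0, against 4044 to 4423 in the other 12 libraries. Replicate 1 of *Socs3* cKO at 2 weeks had the steepest dependence of expression on GC content (-1.20 log2 units per 10 percentage points, against -0.26 to 0.48 in the others).

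The targeted gene does not follow the genotype label. *Socs3* measured 9.71, 10.2, 10.3 and 10.3 FPKM in wild type mice of 2 weeks, against 1.25, 9.32, 12.6 and 3.51 FPKM in *Socs3* cKO. At 10 weeks these were 2.76, 4.81 and 2.02 FPKM, against 36.5, 29.8, 47.7 and 32.4 FPKM. All 4 libraries labelled *Socs3* cKO at 10 weeks were thus higher than every wild type library. One value per gene cannot separate the deleted part of *Socs3* from the rest, nor keratinocytes from other cells, and every direction below is that of the libraries labelled *Socs3* cKO.

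The AU-rich word bound by ZFP36 proteins occurs in transcripts of 5 of the 8 genes themselves. Written in DNA letters as in the sites below, TATTTAT was counted on the transcript strand in the 3′ untranslated region of the longest GENCODE transcript, overlapping words included. It occurred 3 times each in *Zfp36*, *Zfp36l1* and *Zfp36l2*, once each in *Btg2* and *Tob2*, and not in *Zc3h12a*, *Btg1* or *Tob1*. Among all 13148 tested genes with a 3′ untranslated region, 27.2% held it, with a median length of 1118 bases against 1826 bases for the 8 genes. The sites below show the first such word of each transcript in capitals within 29 bases of mm9, all on the minus strand (chr7:29161985-29162013, chr12:81209409-81209437, chr17:84584254-84584282, chr1:135973826-135973854 and chr15:81680290-81680318 in this order).
Zfp36: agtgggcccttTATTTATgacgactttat
Zfp36l1: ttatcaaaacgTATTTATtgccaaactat
Zfp36l2: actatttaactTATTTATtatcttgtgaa
Btg2: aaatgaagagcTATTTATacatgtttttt
Tob2: tatcacctgctTATTTATgtacgaggttg
None of the 8 genes held overlapping words (0 of 8). For comparison, 17 listed short-lived cytokine and early response transcripts held 0 to 9 words each. In 6 of the 17 some words overlapped in this form, 3 held a single word and 3 held 0. The cyclooxygenase gene *Ptgs2* (chr1:151952916-151952944, plus strand) and the chemokine gene *Cxcl1* (chr5:91321625-91321653, plus strand), with 6 words each, show overlapping words, and *Il6* (chr5:30346268-30346296, plus strand) shows the single word.
Ptgs2: tctactgaccaTATTTATTTATTTATgtg
Cxcl1: tttgagggtccTATTTATTTATgtattta
Il6: tttatgattgaTATTTATtatttttatga

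Promoters are shown for *Zfp36* and *Btg2*, the genes with the largest genotype difference at 10 weeks, and for *Btg1*, the gene with the smallest. Each run is the 250 bases before the start of transcription in a RefSeq table of GRCm38.p6 promoters, which held 7 of the 8 genes (not *Zfp36l2*), and each matched mm9 exactly once. The positions are chr7:29164248-29164497 (minus strand) for *Zfp36*, chr1:135975733-135975982 (minus strand) for *Btg2* and chr10:96079385-96079634 (plus strand) for *Btg1*. Capitals mark the motifs found. The search covered both strands for the STAT word TTCNNNGAA, the AP-1 word TGANTCA, the CRE word TGACGTCA and the EGR word GCGNGGGCG. It also covered the CArG box, the kappaB site and the TATA box word, whose letters are TATAAA.
Zfp36: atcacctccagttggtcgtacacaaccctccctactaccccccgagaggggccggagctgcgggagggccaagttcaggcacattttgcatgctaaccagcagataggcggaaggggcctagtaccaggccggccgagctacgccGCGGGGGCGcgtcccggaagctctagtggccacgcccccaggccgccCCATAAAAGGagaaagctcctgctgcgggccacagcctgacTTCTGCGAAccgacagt
Btg2: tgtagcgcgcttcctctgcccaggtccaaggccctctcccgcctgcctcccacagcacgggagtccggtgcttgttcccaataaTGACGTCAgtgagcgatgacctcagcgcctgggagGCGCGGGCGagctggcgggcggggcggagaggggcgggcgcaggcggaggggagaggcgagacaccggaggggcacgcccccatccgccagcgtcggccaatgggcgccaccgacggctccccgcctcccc
Btg1: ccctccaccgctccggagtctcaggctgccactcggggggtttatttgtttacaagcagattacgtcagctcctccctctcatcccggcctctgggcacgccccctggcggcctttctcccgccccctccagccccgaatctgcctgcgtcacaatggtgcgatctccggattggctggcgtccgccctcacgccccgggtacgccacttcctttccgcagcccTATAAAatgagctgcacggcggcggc
The *Zfp36* window held an EGR word 105 to 97 bases before the start, a CArG box at 58 to 49 and a STAT word at 17 to 9. The GENCODE start of *Zfp36* lies 27 bases further upstream, so that the STAT word falls inside its first exon there. The *Btg2* window held a CRE word at 166 to 159 and an EGR word at 131 to 123. Of the other windows, *Zfp36l1* held an AP-1 word and a TATA word, *Btg1* and *Tob1* held a TATA word, and *Zc3h12a* and *Tob2* held none of these. Among 32851 promoter windows of this length, 7.02% held the STAT word, 6.75% the AP-1 word, 1.55% the CRE word, 4.70% the EGR word, 1.47% the CArG box, 7.25% the kappaB site and 12.4% the TATA word. A match is a description of the letters and not a measured binding site.

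All 8 genes were expressed in the ear at both ages, with an FPKM of at least 1.22 in every mouse, and all 8 passed the expression filter. At 10 weeks, 5 of the 8 were DEGs and all 5 were up-regulated in *Socs3* cKO, where a DEG has an adjusted p below 0.01 and a |log2(FC)| of at least 1 in limma. *Zfp36*, *Btg2* and *Zc3h12a* rose most, *Tob2* and *Zfp36l1* rose about as much as the threshold asks, and *Zfp36l2*, *Tob1* and *Btg1* did not pass the test. Of all 13105 genes tested at this age 14.9% were DEGs, 12.5% up-regulated and 2.43% down-regulated. The median log2(FC) was 1.25 over the 8 genes and 0.31 over all genes tested.

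*Zfp36*, which encodes tristetraprolin (chromosome 7 of mm9, 29161803 to 29164274, minus strand, 2 exons), showed the largest difference. The gene measured 15.4, 15.9 and 8.54 FPKM in wild type mice at 10 weeks, against 263, 214, 277 and 130.3 FPKM in *Socs3* cKO. Every *Socs3* cKO mouse stood far above every wild type mouse. The wild type mean was 13.3 ± 4.10 FPKM (SD, n = 3) and the *Socs3* cKO mean 221 ± 66.3 FPKM (SD, n = 4), a ratio of 16.7. On the log2(FPKM + 0.1) scale used for all tests, log2(FC) was 4.04 (SE 0.30, adjusted p = 4.89e-05).

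*Btg2*, an antiproliferative gene known as a p53 target and as an early response gene (chromosome 1, 135971747 to 135975697, minus strand, 2 exons), came next. The gene measured 13.5, 14.9 and 9.79 FPKM in wild type mice, against 123, 102, 108 and 94.0 FPKM in *Socs3* cKO. The groups were widely separated, and the *Socs3* cKO mice were close to one another (106.9 ± 12.1 FPKM, SD, n = 4). Its log2(FC) was 3.08 (SE 0.19, adjusted p = 1.26e-05).

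*Zc3h12a*, the gene of Regnase-1 (chromosome 4, 124795667 to 124805084, minus strand, 6 exons), was the third. The gene measured 5.98, 8.11 and 5.17 FPKM in wild type mice, against 35.9, 39.5, 57.0 and 23.5 FPKM in *Socs3* cKO. The lowest *Socs3* cKO mouse was higher than the highest wild type mouse. Its log2(FC) was 2.54 (SE 0.29, adjusted p = 0.000388). Without the wild type replicates 1 and 3, the libraries with the steepest fall of expression with gene length in their group, the value was 2.18 and no longer passed the threshold (adjusted p = 0.0390), with 1 wild type library assumed to vary like the others.

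*Tob2* (chromosome 15, 81678700 to 81688756, minus strand, 2 exons) and *Zfp36l1* (chromosome 12, 81208747 to 81214000, minus strand, 2 exons) had smaller differences. *Tob2* measured 8.60, 11.7 and 7.23 FPKM in wild type mice, against 23.0, 25.4, 25.4 and 15.8 FPKM in *Socs3* cKO, with a log2(FC) of 1.28 (SE 0.23, adjusted p = 0.00324). *Zfp36l1* measured 42.4, 55.1 and 33.3 FPKM in wild type mice, against 113, 111, 118 and 65.5 FPKM in *Socs3* cKO, with a log2(FC) of 1.21 (SE 0.25, adjusted p = 0.00587). Replicate 4 was the lowest *Socs3* cKO mouse for both, as for every other gene of the set except *Zfp36l2*. For both genes the groups did not overlap. Both calls depended on the scale of the libraries. With median-of-ratios scaling, which sets the median of all genes near 0, log2(FC) was 0.96 for *Tob2* and 0.89 for *Zfp36l1*, and neither was a DEG. Neither passed without wild type replicate 1 or 3 or *Socs3* cKO replicate 1 or 2 (adjusted p = 0.0103 to 0.0168 for *Tob2* and 0.0168 to 0.0304 for *Zfp36l1*), *Zfp36l1* did not pass without *Socs3* cKO replicate 3 (adjusted p = 0.0160), and log2(FC) was 0.91 and 0.85 without both wild type replicates. Of the exon bases of *Zfp36l1*, 56.0% are also exon of a non-coding gene on the opposite strand, *Gm17591*, and the library kit does not mark strand, so reads of the pair cannot be told apart.

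The remaining 3 genes overlapped between genotypes at 10 weeks. *Zfp36l2* (chromosome 17, 84583271 to 84587287, minus strand) measured 69.9, 84.4 and 40.8 FPKM in wild type mice, against 73.3, 88.3, 97.1 and 77.4 FPKM in *Socs3* cKO (log2(FC) 0.42, SE 0.25, adjusted p = 0.194). *Tob1* (chromosome 11, 94072768 to 94076809, plus strand) measured 47.5, 44.2 and 27.4 FPKM in wild type mice, against 41.3, 55.3, 58.7 and 27.0 FPKM in *Socs3* cKO (log2(FC) 0.18, SE 0.30, adjusted p = 0.658). *Btg1* (chromosome 10, 96079635 to 96085447, plus strand) measured 70.5, 65.6 and 50.0 FPKM in wild type mice, against 66.1, 75.9, 73.1 and 50.6 FPKM in *Socs3* cKO (log2(FC) 0.10, SE 0.20, adjusted p = 0.723). In each of them, as in every other gene of the set, the lowest wild type value came from replicate 3. The sign of the *Tob1* and *Btg1* differences turned with the scaling.

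Over the 8 genes, the ranges of the 2 genotypes were apart at 10 weeks for 5, all with *Socs3* cKO higher. Such separation was frequent at this age, with 42.3% of all genes tested apart and 31.2% apart with *Socs3* cKO higher. The exact permutation test gave p = 0.0571 (2-sided) for each of the 5 genes, the smallest that 3 mice against 4 can reach, so it cannot pass 0.05 here.

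**Figure D1:**
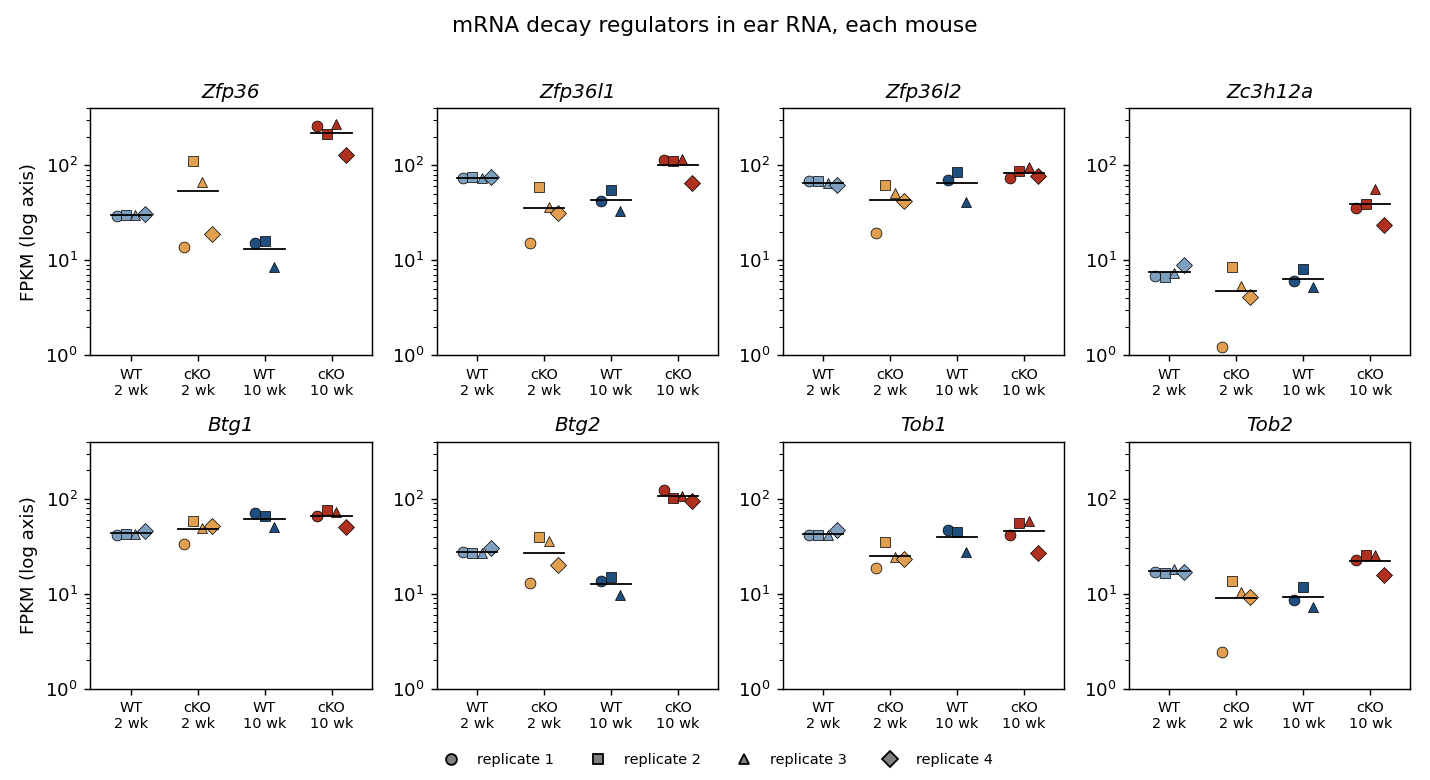
FPKM (log axis) of the 8 genes in each mouse, by genotype and age, with a bar at the group mean (n = 4, and 3 for wild type at 10 weeks) and a symbol for each replicate. *Zfp36*, *Btg2* and *Zc3h12a* stand apart in *Socs3* cKO at 10 weeks, and *Socs3* cKO at 2 weeks is spread widely, with replicate 1 lowest for all 8 genes.

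At 2 weeks none of the 8 genes (0 of 8) was a DEG by limma, while 14.4% of all 13524 genes tested were (7.24% up-regulated and 7.19% down-regulated). At an unadjusted p below 0.05, 3 of the 8 were lower in *Socs3* cKO and 0 were higher, where 58.0% of all genes tested passed (33.0% lower and 25.0% higher), so the 3 lower genes are near the share of all genes. The median log2(FC) was -0.76 over the 8 genes and -0.21 over all genes tested. Without *Socs3* cKO replicate 1, the library with the steepest GC dependence, these medians were -0.37 and -0.10, and with the trends with gene length and GC content removed they were -0.35 and -0.26.

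These 3 genes were *Zfp36l1*, *Tob1* and *Tob2*, and in each of them the 4 *Socs3* cKO values were under the 4 wild type values without overlap. *Zfp36l1* measured 73.6, 74.7, 73.3 and 75.3 FPKM in wild type mice, against 15.3, 59.3, 36.3 and 31.6 FPKM in *Socs3* cKO (log2(FC) -1.21, SE 0.35, adjusted p = 0.0236). *Tob1* measured 41.5, 41.2, 41.8 and 47.4 FPKM in wild type mice, against 18.6, 35.3, 24.2 and 23.0 FPKM in *Socs3* cKO (log2(FC) -0.80, SE 0.19, adjusted p = 0.0130). *Tob2* measured 17.0, 16.5, 18.2 and 17.2 FPKM in wild type mice, against 2.44, 13.6, 10.3 and 9.30 FPKM in *Socs3* cKO (log2(FC) -1.18, SE 0.47, adjusted p = 0.0655). The exact permutation test gave p = 0.0286 (2-sided) for each, the smallest that 4 against 4 allows, with no adjustment for the 8 genes. Of all genes tested at 2 weeks, 56.1% had ranges apart, 33.2% with *Socs3* cKO lower and 22.9% with it higher.

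*Zfp36* and *Btg2* were split within the *Socs3* cKO group at 2 weeks. *Zfp36* measured 29.1, 30.2, 29.9 and 31.0 FPKM in wild type mice, against 13.8, 112, 67.4 and 19.2 FPKM in *Socs3* cKO. *Btg2* measured 27.4, 26.8, 26.7 and 30.2 FPKM in wild type mice, against 12.9, 39.2, 35.9 and 19.9 FPKM in *Socs3* cKO. For both genes, replicates 2 and 3 were above and replicates 1 and 4 below every wild type mouse. The spread exceeded the mean difference, with a log2(FC) of 0.33 (SE 0.61, adjusted p = 0.665) for *Zfp36* and -0.18 (SE 0.33, adjusted p = 0.670) for *Btg2*.

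For *Zc3h12a* and *Zfp36l2* a single *Socs3* cKO mouse reached into the range of the wild type at 2 weeks. *Zc3h12a* measured 6.85, 6.65, 7.43 and 8.84 FPKM in wild type mice, against 1.22, 8.4, 5.41 and 4.06 FPKM in *Socs3* cKO (log2(FC) -0.90, SE 0.50, adjusted p = 0.158). *Zfp36l2* measured 68.1, 68.8, 65.1 and 62.0 FPKM in wild type mice, against 19.5, 62.5, 50.8 and 42.0 FPKM in *Socs3* cKO (log2(FC) -0.71, SE 0.32, adjusted p = 0.0948). In both genes that mouse was replicate 2 and the lowest was replicate 1. *Btg1* measured 41.6, 43.1, 42.5 and 46.0 FPKM in wild type mice, against 33.5, 57.8, 49.0 and 51.3 FPKM in *Socs3* cKO (log2(FC) 0.12, SE 0.18, adjusted p = 0.585). Here 3 of 4 *Socs3* cKO mice were above every wild type mouse and replicate 1 was below.

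**Figure D2:**
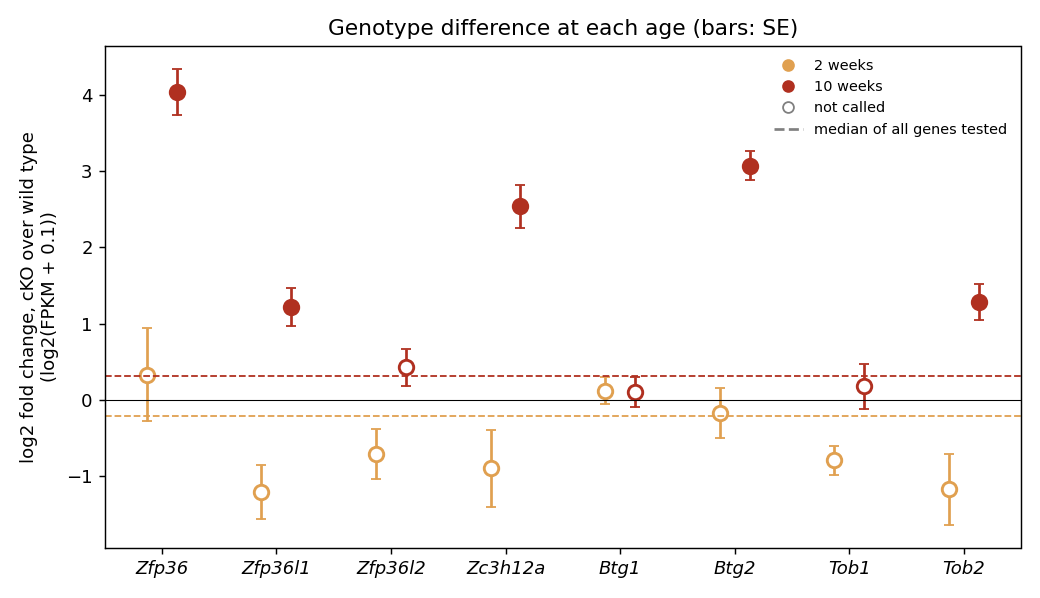
log2(FC) of *Socs3* cKO over wild type for each gene at 2 and 10 weeks, with bars of 1 SE, filled circles for DEGs and dashed lines at the median of all genes tested (-0.21 at 2 weeks, 0.31 at 10 weeks). Filled circles appear only at 10 weeks, where *Zfp36*, *Btg2* and *Zc3h12a* lie between 2.54 and 4.04.

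The genotype difference itself changed with age for 5 genes. In the interaction fit over all 4 groups, the difference at 10 weeks minus that at 2 weeks passed an adjusted p below 0.01 for *Zfp36* (3.72 on the log2 scale, SE 0.76, adjusted p = 0.00211), *Zc3h12a* (3.44, SE 0.64, adjusted p = 0.00121) and *Btg2* (3.25, SE 0.41, adjusted p = 9.35e-05). It also passed for *Tob2* (2.46, SE 0.57, adjusted p = 0.00425) and *Zfp36l1* (2.43, SE 0.47, adjusted p = 0.00157), whose difference went from negative at 2 weeks to positive at 10 weeks. Of all 13937 genes tested, 25.6% passed, 18.5% with a positive and 7.05% with a negative interaction, and the median interaction was 0.55. *Zfp36l2* (1.14) and *Tob1* (0.97) did not pass, both at an adjusted p of 0.0458, and *Btg1* stood at -0.02 (SE 0.27, adjusted p = 0.949). Without the wild type replicates 1 and 3 at 10 weeks, the interaction passed for *Btg2* (adjusted p = 0.00491) and not for the other 4 genes (adjusted p = 0.0381 to 0.0886).

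Between ages, the genotypes took different courses. In the wild type, only *Btg2* was a DEG between 10 and 2 weeks (log2(FC) -1.14, SE 0.30, adjusted p = 0.00698), against 25.5% of all genes tested (6.18% up-regulated and 19.4% down-regulated), and it was not a DEG with median-of-ratios scaling, where log2(FC) was -0.73, nor with any wild type mouse of 2 weeks left out. *Zfp36* in the wild type had a log2(FC) of -1.23 (SE 0.56, adjusted p = 0.0790) and was not a DEG. In *Socs3* cKO, 4 of the 8 genes were DEGs and up-regulated at 10 weeks, against 3.54% of all genes tested (2.01% up-regulated). They were *Zc3h12a* (3.22, SE 0.43, adjusted p = 0.000317), *Zfp36* (2.49, SE 0.52, adjusted p = 0.00717), *Btg2* (2.11, SE 0.28, adjusted p = 0.000279) and *Zfp36l1* (1.63, SE 0.32, adjusted p = 0.00504). With only the *Socs3* cKO groups in the fit, 0 of the 8 were called by limma, against 1.11% of all genes tested in that fit. At an unadjusted p below 0.05, 7 of the 8 were higher at 10 weeks in it, against 9.7% of all genes. *Tob2* (1.53, adjusted p = 0.0229) and *Zfp36l2* (1.05, adjusted p = 0.0376) did not pass. These comparisons share their groups with the interaction and are not independent of it.

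Ordered by mean FPKM, *Socs3* cKO at 10 weeks was the highest group for 8 of 8 genes, and 5 genes shared one order. For *Zfp36l1*, *Zfp36l2*, *Zc3h12a*, *Tob1* and *Tob2* the groups ran from *Socs3* cKO at 2 weeks through wild type at 10 weeks and wild type at 2 weeks to *Socs3* cKO at 10 weeks, with overlap at most steps. *Zfp36* ran from wild type at 10 weeks (13.3) through wild type at 2 weeks (30.0) and *Socs3* cKO at 2 weeks (53.2) to *Socs3* cKO at 10 weeks (221), and only the middle pair overlapped. *Btg2* ran from 12.7 in wild type at 10 weeks through 27.0 and 27.8 FPKM in the younger groups up to 106.9 in the older *Socs3* cKO mice, and only the last step was free of overlap. *Zc3h12a* lay between 4.77 and 7.44 FPKM in the other groups, whose ranges overlapped in order, and at 39.0 in *Socs3* cKO at 10 weeks. *Tob1* (25.3 to 45.6) and *Btg1* (43.3 to 66.4) overlapped at every step of their order. The share of all genes without overlap at such steps was not counted.

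The leading gene of each family differed between groups, since FPKM allows levels of related genes to be compared within a mouse. In the Zfp36 family, *Zfp36l1* was highest in 4 of 4 wild type mice at 2 weeks, *Zfp36l2* in 3 of 3 wild type mice at 10 weeks and *Zfp36* in 4 of 4 *Socs3* cKO mice at 10 weeks. *Zfp36* made up 17.6% ± 0.6 (SD, n = 4) of the family's summed FPKM in wild type at 2 weeks, 10.9% ± 1.0 (SD, n = 3) in wild type at 10 weeks and, in the *Socs3* cKO mice of that age, 53.6% ± 4.8 (SD, n = 4). In *Socs3* cKO at 2 weeks its share was 28.4%, 48.0%, 43.6% and 20.7%, with *Zfp36l2* highest in replicates 1 and 4. At 10 weeks the family summed to 82.6 to 155 FPKM in the wild type, against 273 to 491 FPKM in *Socs3* cKO.

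In the BTG/TOB family, *Btg1* was highest in 3 of 4 and 3 of 3 wild type mice at 2 and 10 weeks and in 4 of 4 *Socs3* cKO mice at 2 weeks. *Btg2* was highest in 4 of 4 *Socs3* cKO mice at 10 weeks, with 44.8% ± 5.4 (SD, n = 4) of the summed FPKM, against 10.3% ± 0.6 (SD, n = 3) in the wild type of that age. *Tob2* was the lowest of the family in 15 of 15 mice. At that age the family summed to 94.4 to 140.2 FPKM in the wild type, against 187 to 266 FPKM in *Socs3* cKO. These shares are functions of the values tested above and were given no test of their own.

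**Figure D3:**
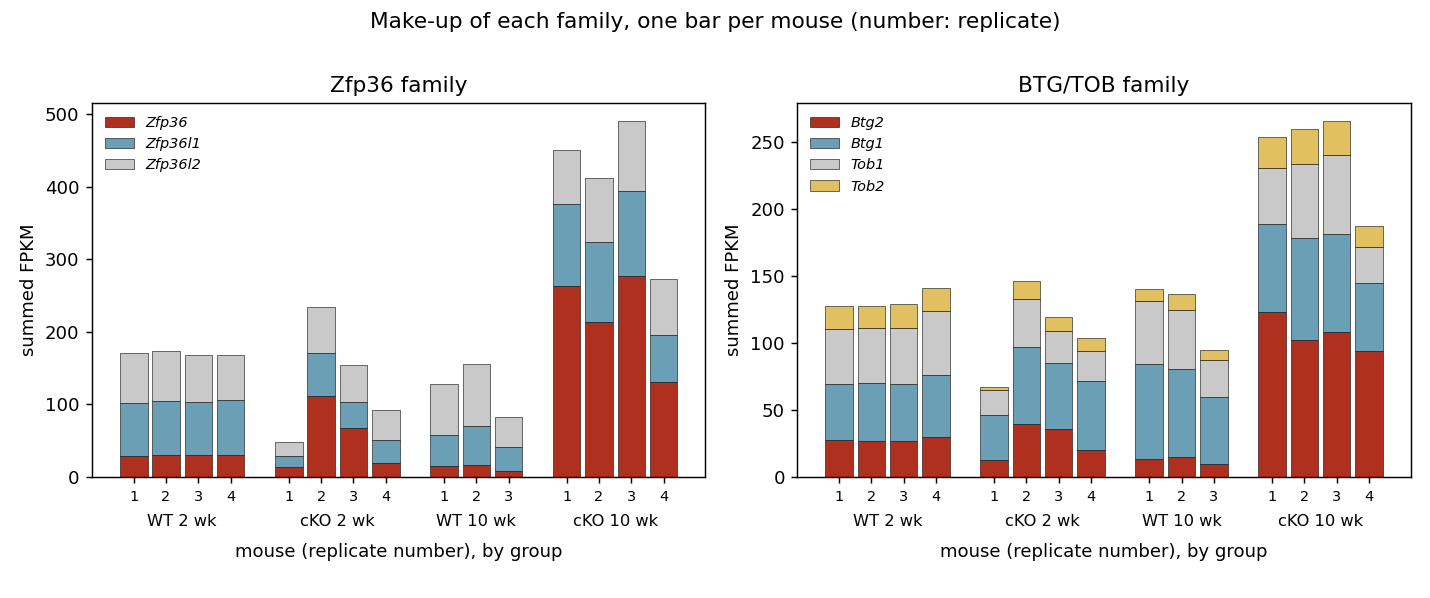
Summed FPKM of the Zfp36 family (left) and the BTG/TOB family (right), one stacked bar per mouse with a colour for each gene. The red parts, *Zfp36* and *Btg2*, are the largest part of each bar in *Socs3* cKO at 10 weeks and the smallest or next to smallest in wild type at 10 weeks.

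Immediate-early genes moved with *Zfp36* and *Btg2*. The sum of 14 immediate-early genes, known to be transcribed within minutes of a stimulus, was 301 to 325 FPKM in wild type at 2 weeks and 101 to 177 in wild type at 10 weeks. It was 113, 713.8, 754 and 139.8 FPKM in *Socs3* cKO at 2 weeks and 1671, 1399, 1766 and 1181 in *Socs3* cKO at 10 weeks. The *Socs3* cKO mice at 2 weeks split as they did for *Zfp36* and *Btg2*, with replicates 2 and 3 high and replicates 1 and 4 low. At 10 weeks 13 of the 14 were up-regulated DEGs, where 12.5% of all genes tested were. Of the 14, 1 was at 0 in every wild type mouse of that age and passed the expression filter only through *Socs3* cKO. *Fosb*, with a lowest wild type value of 0.499 FPKM at that age, also needed *Socs3* cKO to pass. Others that passed this way were not counted, so the 13 of 14 describes the genes that passed and no more. At 2 weeks 0 of 13 tested were DEGs by limma, where 14.4% of all genes tested were. At an unadjusted p below 0.05 in limma, 4 of the 13 passed, all lower, where 33.0% of all genes tested were lower. None of the 8 genes is on this list, and the part of this state in their differences was not tested.

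**Figure D4:**
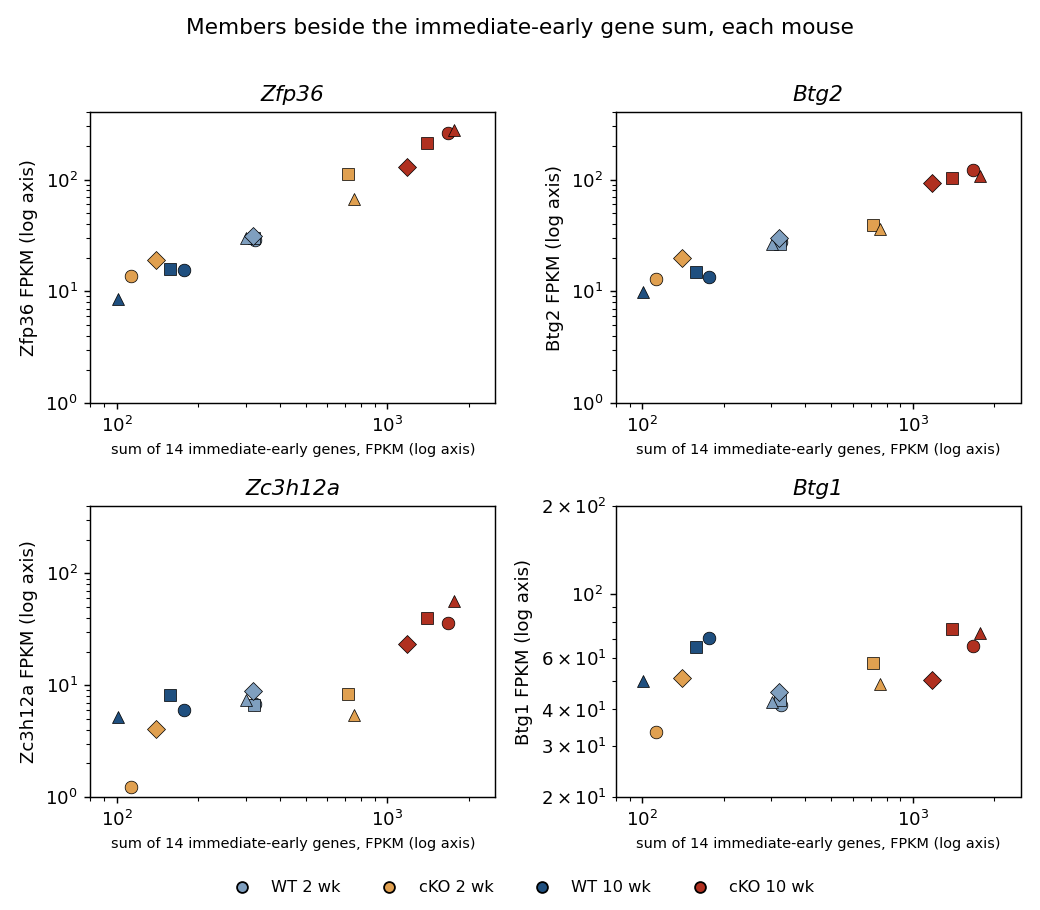
FPKM of *Zfp36*, *Btg2*, *Zc3h12a* and *Btg1* (log axis, narrower for *Btg1*) against the summed FPKM of 14 immediate-early genes (log axis), one point per mouse, coloured by group, with symbols for replicates 1 (circle), 2 (square), 3 (triangle) and 4 (diamond). Within *Socs3* cKO at 2 weeks, replicates 2 and 3 lie above replicates 1 and 4 both in the sum and in *Zfp36* and *Btg2*, and *Btg1* stays between 33.5 and 75.9 FPKM.

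The genes most like each regulator over the 15 mice were found by Pearson's r of log2(FPKM + 0.1) among 13937 genes. For *Zfp36* they were *Cyr61*, a secreted matrix protein gene (r = 0.98), and the AP-1 gene *Fosb* (r = 0.97). For *Btg2* they were *Cyr61* (r = 0.99) and the nuclear receptor gene *Nr4a1* (r = 0.99), whose mean was 289.7 FPKM in *Socs3* cKO and 3.59 FPKM in wild type at 10 weeks. For *Zfp36l1* they were the signalling inhibitor gene *Spry2* (r = 0.99) and the kinase gene *Map3k14* (r = 0.98), and for *Tob2* they were *Midn* (r = 0.99) and *Sbno2* (r = 0.98). *Zc3h12a* was nearest to the prostacyclin receptor gene *Ptgir* (r = 0.98) and the clock gene *Cry2* (r = 0.97). Nearest to *Zfp36l2* were *Fam76a* (r = 0.95) and *Pnrc1* (r = 0.94), to *Btg1* *Siah1a* (r = 0.93) and *Eif2c4* (r = 0.93), and to *Tob1* *Nus1* (r = 0.94) and *Camkk1* (r = 0.91). Among the 8 genes, r was highest between *Zfp36* and *Btg2* (0.98) and between *Zfp36l1* and *Tob2* (0.97), and lowest between *Zfp36* and *Tob1* (0.38). These r describe the mice as they are, which share groups and library scale.

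The rest of the decay machinery is given as counts, with no test against the 8 genes. Of 11 CCR4-NOT genes, 3 were up-regulated DEGs at 10 weeks, where 12.5% of all genes tested were. Their median log2(FC) over the 11 was 0.35, near that of all genes (0.31). The 3 DEGs were the deadenylase gene *Cnot6* (2.39, SE 0.53, adjusted p = 0.00749), the scaffold gene *Cnot1* (1.09, SE 0.16, adjusted p = 0.00131) and *Cnot2* (1.04, SE 0.19, adjusted p = 0.00306). *Cnot6* measured 3.13, 9.10 and 1.22 FPKM in wild type mice, against 16.8, 21.2, 21.0 and 13.2 FPKM in *Socs3* cKO, apart but with wide spread in the wild type. At 2 weeks 0 of 11 were DEGs by limma (6 at an unadjusted p below 0.05, of which 3 were lower, where 58.0% of all genes passed).

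Of all genes tested at 10 weeks, 12.5% were up-regulated DEGs, a share to set beside the counts that follow. Among related RNA-binding genes, the Regnase-1 relative *Zc3h12c* was up-regulated at 10 weeks (2.60, SE 0.30, adjusted p = 0.000445), 1 of 3 tested from a list of 7 relatives. It passed the expression filter only through *Socs3* cKO, with 0.70, 0.93 and 0.46 FPKM in the wild type. Of 11 other proteins that bind AU-rich elements or stem-loops, 1 was up-regulated at 10 weeks, *Arid5a*, which stabilises *Il6* mRNA (2.04, SE 0.24, adjusted p = 0.000445). At 2 weeks *Hnrnpd*, the AUF1 gene, was down-regulated (-1.43, SE 0.26, adjusted p = 0.00447). Of 10 kinases and ligases that act on ZFP36 or Regnase-1, 0 were DEGs by limma at either age. At an unadjusted p below 0.05 in limma, 4 passed at 10 weeks, where 48.7% of all genes passed. At 2 weeks 5 passed, where 58.0% of all genes did.

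Genes of the general decay enzymes gave single calls, where 7.24% of all genes tested were up-regulated at 2 weeks and 12.5% at 10 weeks. The exonuclease gene *Xrn1* was the only call among 10 decapping and 5′ to 3′ decay genes at both ages (2.50 at 2 weeks, SE 0.23, adjusted p = 0.000202, and 2.74 at 10 weeks, SE 0.39, adjusted p = 0.00122), from wild type means of 0.711 and 0.651 FPKM. *Xrn1* passed the expression filter only through *Socs3* cKO, with wild type values of 0.520 to 0.936 FPKM at 2 weeks and 0.313 to 1.23 FPKM at 10 weeks. *Ttc37*, of the SKI complex that feeds the exosome, was the only call among 15 exosome and 3′ to 5′ decay genes (1.12 at 2 weeks, SE 0.17, adjusted p = 0.00203, and 2.34 at 10 weeks, SE 0.31, adjusted p = 0.000884). At 10 weeks *Ttc37* also passed the filter only through *Socs3* cKO, with 1.28, 1.44 and 0.581 FPKM in wild type mice. Of 6 tested genes for PAN3, PARN and poly(A) binding, 0 were DEGs by limma at 10 weeks (1 at an unadjusted p below 0.05) and 0 at 2 weeks (3 at an unadjusted p below 0.05). Of all genes tested, 48.7% passed that unadjusted limit at 10 weeks and 58.0% at 2 weeks.

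Short-lived cytokine and early response mRNAs, the usual targets of ZFP36 and Regnase-1, were largely up-regulated at 10 weeks beside the regulators. Of 17 genes listed, 13 passed the expression filter and 12 of these were up-regulated DEGs, with a median log2(FC) of 3.67. Over all genes tested at that age, 12.5% were up-regulated DEGs and the median was 0.31. Several of them passed the filter only through *Socs3* cKO, where they were high, so the count and median describe the genes that passed and no more. *Cxcl1* measured 0.970, 0.754 and 0.164 FPKM in wild type mice, against 101, 109, 217 and 223 FPKM in *Socs3* cKO (log2(FC) 7.93, SE 0.48, adjusted p = 1.23e-05). *Il6* measured 0.618, 0.0801 and 0.0696 FPKM in wild type mice, against 43.7, 42.8, 82.2 and 109 FPKM in *Socs3* cKO (log2(FC) 7.84, SE 0.52, adjusted p = 2.14e-05). *Ptgs2* measured 0.830, 0.394 and 0.187 FPKM in wild type mice, against 28.7, 29.3, 41.5 and 42.1 FPKM in *Socs3* cKO (log2(FC) 6.10, SE 0.36, adjusted p = 1.22e-05). All 3 were below 1 FPKM in every wild type mouse at 10 weeks, so each passed the filter only through *Socs3* cKO. They were named for the largest |log2(FC)| of the list, so their separation is a description only. The decay regulators that were DEGs at 10 weeks were higher in the same *Socs3* cKO mice than in the wild type. Among these *Socs3* cKO mice, replicate 4 was the highest for *Cxcl1*, *Il6* and *Ptgs2* and the lowest for each of those regulators. This order within the group was not tested. At 2 weeks 0 of 7 tested were DEGs by limma (2 at an unadjusted p below 0.05, both higher, where 25.0% of all genes were higher). The AU-rich word shown above occurred in 14 of the 17 genes.

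**Figure D5:**
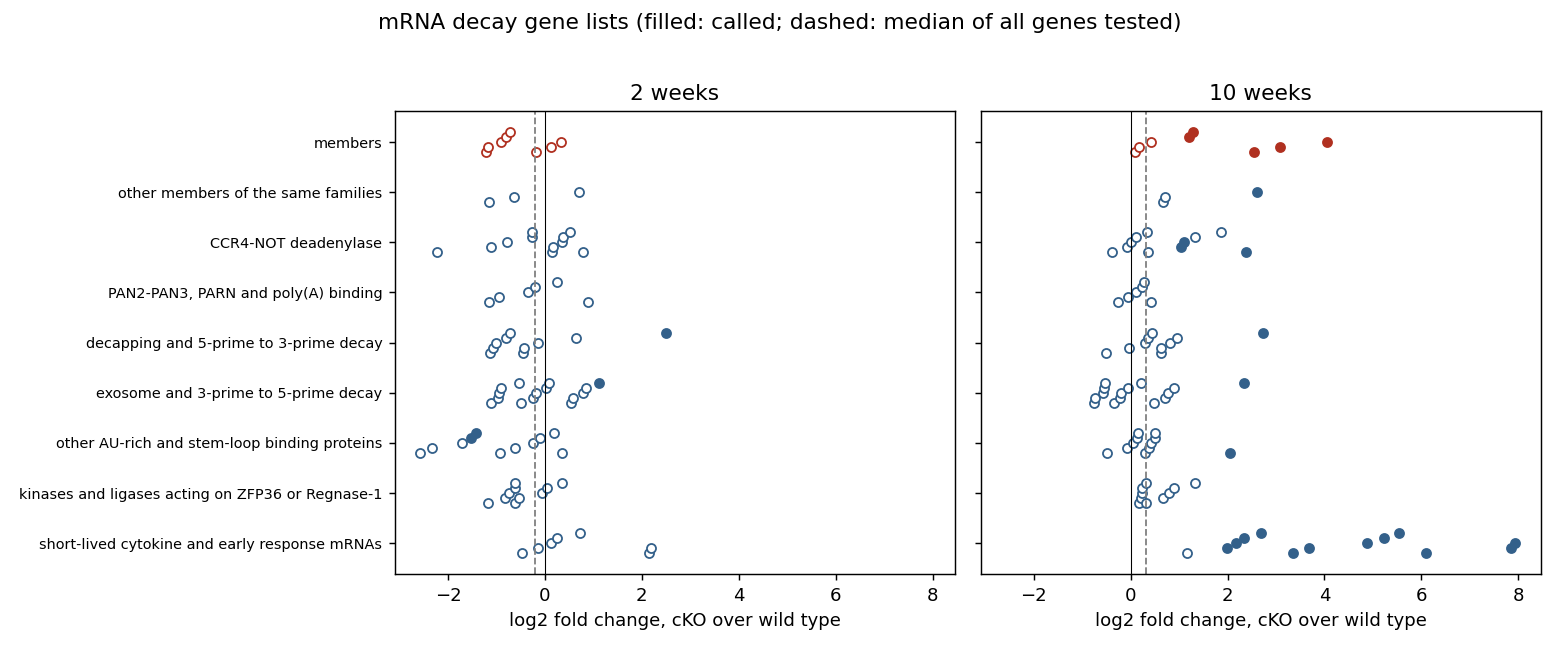
log2(FC) of *Socs3* cKO over wild type for the 8 genes (red) and for 8 lists of related genes (blue) at 2 weeks (left) and 10 weeks (right), one circle per tested gene, filled for DEGs, with a dashed line at the median of all genes tested. At 10 weeks the short-lived cytokine and early response mRNAs lie highest, up to 7.93, and most genes of the decay enzymes lie within 1 of the dashed line.

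Marker sums of several other cell types also lay apart or nearly so between the genotypes at 10 weeks. Macrophage markers summed to 61.0 to 90.4 FPKM in the wild type and 162 to 200.5 FPKM in *Socs3* cKO (4 of 5 up-regulated), and endothelial markers to 13.8 to 19.6 and 32.8 to 44.6 FPKM (3 of 5 up-regulated). Fibroblast markers summed to 3858 to 6812 FPKM in the wild type and 6795 to 11807 FPKM in *Socs3* cKO (1 of 6 up-regulated), adipocyte markers to 27.4 to 52.9 and 47.2 to 109 FPKM (1 of 5 up-regulated). Skeletal muscle markers were lower (669 to 1143 against 333 to 612 FPKM, 1 of 5 down-regulated), while keratinocyte, neutrophil, T cell, B cell, mast cell and cartilage sums overlapped between the genotypes. At 2 weeks the sums of 9 of the 12 cell types lay apart, 4 lower and 5 higher in *Socs3* cKO, beside the lower values of *Zfp36l1*, *Tob1* and *Tob2*. Hair shaft keratins summed to 580 to 992 FPKM in the wild type and 0.964 to 11.8 FPKM in *Socs3* cKO (7 of 7 down-regulated), and fibroblast markers to 12664 to 14859 and 5107 to 7088 FPKM (3 of 6 down-regulated, 1 up-regulated). Endothelial (61.6 to 68.8 against 44.8 to 55.9 FPKM) and cartilage sums (186.4 to 309 against 31.4 to 186.2 FPKM) were also lower. Skeletal muscle markers were higher in *Socs3* cKO (602 to 916 against 1418 to 2802 FPKM, 3 of 5 up-regulated). Higher too was the T cell sum (18.5 to 26.1 against 29.5 to 49.2 FPKM), with 2 of 5 markers up-regulated and 1 down-regulated. The adipocyte sum was higher (14.8 to 17.8 against 22.4 to 122 FPKM, 1 of 5 up-regulated). Macrophage (82.0 to 93.2 against 104 to 129.9 FPKM) and mast cell sums (459.9 to 490.5 against 551 to 1101 FPKM) were also higher, with 0 of 5 markers called in each. Their part in the differences of the 8 genes at either age was not tested.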

How the data were processed

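RNA from ears of 15 mice was sequenced as single reads of 50 bases with a TruSeq v2 kit, and the groups and replicate numbers come from the sample labels. The authors aligned the reads to mm9 with TopHat2 2.1.0 and deposited FPKM per gene, and the submitters' processing notes also name Cufflinks. The methods state more wild type mice, and the others were not analysed here. Depth is unknown, so no counting error could be given. Nothing says whether replicates are littermates.

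Values were analysed as log2(FPKM + 0.1), and genes had to reach an FPKM of 1 in 3 or more of the compared samples. Genotypes were compared within each age with limma 3.58.1 (R 4.3.3, trend in the prior variance, 2-sided, Benjamini-Hochberg over all genes tested). The interaction and age contrasts used all 4 groups. Exact permutation tests used scipy 1.17.1. The limma step was tested on simulated data. The 8 genes, the gene lists and the tests were chosen with earlier results of these data known. Besides the 8 genes and *Socs3*, the text names the 2 genes most alike to each by r and, of each list, up to 3 DEGs of largest |log2(FC)|. One gene of these lists is not reported here. Of 165 listed symbols, 163 were found in the files, *Pan2* and *Ly6g* not. Alternatives were pseudocounts of 1 and 0.01, other filters and scalings, an adjusted p below 0.05 with no fold threshold, a constant prior variance, removal of length and GC trends, other sets of groups in the fit, a replicate block and leaving out mice. Leaving out the wild type replicates 1 and 3 at 10 weeks together was chosen after seeing the data. Gene positions are from GENCODE vM1 (mm9).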

Additional observations from a re-analysis of the deposited data

Results flagged for a closer look

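The difference between *Socs3* cKO and wild type was not the same at both ages, by the interaction test in limma, for 5 of the 8 genes. The difference at 10 weeks minus that at 2 weeks was 3.72 for *Zfp36*, 3.44 for *Zc3h12a*, 3.25 for *Btg2*, 2.46 for *Tob2* and 2.43 for *Zfp36l1* on the log2 scale, in a data set where 25.6% of all genes tested passed the same threshold.

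In 24 groups of 4 mice examined, a mouse stood far from the others of its group in 2 by Dixon's criterion, where chance gives about 1 in 20. *Zfp36l1* was 65.5 FPKM in *Socs3* cKO replicate 4 at 10 weeks, below the other 3 mice. *Tob1* was 47.4 FPKM in wild type replicate 4 at 2 weeks, above the other 3 mice.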

How the results depend on the processing

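*Zfp36* (log2(FC) 3.72 to 4.38) and *Btg2* stayed DEGs at 10 weeks under 19 of 19 alternatives and *Zc3h12a* under 18, while *Tob2* lost the call under 8 and *Zfp36l1* under 9. Over all 928 single-gene values under alternatives, 827 kept direction and side of the threshold, 56 lost a call, 18 gained one and 27 turned sign. The cause of these changes was not tested. Scaling moved the median of all genes at 10 weeks from 0.31 to -0.00 (median-of-ratios) or -0.04 (quantile), and the 1638 higher and 319 lower DEGs to 952 and 717 or 909 and 817. At 10 weeks the DEGs among the 8 genes numbered 3 with median-of-ratios scaling, 3 with quantile normalization, 3 with all 4 groups in the fit and 2 without the wild type replicates 1 and 3, a fit with 1 wild type library. Leaving out 1 mouse gave 3 to 5 (3 without wild type replicate 1 or 3 or *Socs3* cKO replicate 1 or 2), and 745 to 2665 DEGs over all genes. All genes gave 4931 calls with an adjusted p below 0.05 and no fold threshold, and 115 without wild type replicates 1 and 3.

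At 2 weeks 2 of the 8 genes were called by an adjusted p below 0.05 with no fold threshold, and 1 each with quantile normalization, with length and GC trends removed, and with all 4 groups in the fit. Leaving out 1 mouse gave 0 to 1 (1 without *Socs3* cKO replicate 2). Over all genes the counts were 6479 with no fold threshold, 2869 with quantile normalization, 1660 with trends removed and 3297 with all 4 groups. With 1 mouse left out they were 859 to 3348 (3348 without *Socs3* cKO replicate 2). The interaction count was 1 without the wild type replicates 1 and 3. Between ages in the wild type, the count among the 8 genes was 2 with no fold threshold and 2 with only the groups compared. Over all genes these settings gave 7077 of 13937 and 4439 of 13447. The member count was 0 with median-of-ratios and 0 with quantile normalization, against 3300 and 3295 over all genes. With 1 mouse left out it was 0 to 1, against 2205 to 4519 over all genes. Between ages in *Socs3* cKO the member count was 0 with only the groups compared, against 146 over all genes. With 1 mouse left out it was 2 to 5 there, against 300 to 700 over all genes.

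Signs turned in small differences. At 2 weeks *Btg1* was -0.34 with length and GC trends removed, *Btg2* 0.0068 with median-of-ratios and -0.40 to 0.13 with 1 mouse left out, and *Zfp36* -0.20 to 0.81 with 1 mouse left out. At 10 weeks *Btg1* was -0.23 with median-of-ratios, -0.070 with quantile normalization, -0.22 with trends removed, -0.052 to 0.22 with 1 mouse left out and -0.00021 without the wild type replicates 1 and 3. There *Tob1* was -0.15 with median-of-ratios, -0.024 with quantile normalization, -0.072 to 0.40 with 1 mouse left out and -0.020 without those replicates, and *Zfp36l2* -0.015 without them. The *Btg1* interaction was 0.10 with trends removed and -0.19 to 0.10 with 1 mouse left out. For age in the wild type, *Tob1* was 0.26 with median-of-ratios and -0.30 to 0.10 with 1 mouse left out, *Zc3h12a* 0.18 with median-of-ratios and 0.41 with quantile normalization, and *Zfp36l2* 0.33 with median-of-ratios, 0.23 with trends removed and -0.30 to 0.22 with 1 mouse left out.

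Same-numbered mice did not deviate together (r -0.04 to 0.14 at 2 weeks, -0.21 to 0.07 at 10 weeks). With 3 or 4 mice in a group, these r cannot exclude that the numbers pair mice. With the replicate block, DEGs over all genes numbered 751 at 2 weeks and 1899 at 10 weeks, and among the 8 genes 0 at 2 weeks, 5 at 10 weeks and 0 between ages in the wild type. Each group holds 3 or 4 mice and the depth is unknown, so small differences such as those of *Btg1* cannot be bounded by counting error.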
